A study of Mus musculus with 4 samples.

Results

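The glucocorticoid receptor and a set of genes that it is known to act on or work with were followed in newborn lung: the receptor genes Nr3c1 and Nr3c2, the steroid enzyme gene Hsd11b1, the co-chaperone genes Fkbp4 and Fkbp5, and the response genes Tsc22d3, Zbtb16, Fam107a and Errfi1. These 9 genes were picked by name, with their differences between the genotypes already known, from the 48709 genes of the deposited table, and all 9 were found and lay above the filter on low values (a mean of at least 10). RNA came from the left lung lobe of C57BL/6 mice at postnatal day 1, from 2 mice homozygous for an allele of Ryk named SL (RykSL/SL) and 2 wild-type mice, with no treatment listed. Ryk encodes a WNT receptor; the sample descriptions abbreviate the homozygotes as KO, and what SL does to the gene or protein is not described there. Sex, litter and the hour of collection are not labelled either. With 2 mice a group, p-values and standard errors rest only on the spread between these mice, with variance borrowed across genes. The comparison asks how the lung transcriptome of the homozygotes differs from that of wild-type mice.

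Corticosterone, the main glucocorticoid of mice, crosses into cells and binds the receptor encoded by Nr3c1, which waits in the cytoplasm in a complex with HSP90 and co-chaperones. The bound receptor enters the nucleus, pairs up on DNA elements made of inverted repeats and raises or lowers transcription nearby. In the fetal lung this signal thins the mesenchyme and prepares the surfactant system for birth, and mice without the receptor die soon after birth with immature lungs. The enzyme made from Hsd11b1 regenerates active corticosterone inside cells, and FKBP51, made from Fkbp5, lowers the receptor's affinity for hormone and is itself a target, so that it forms a short feedback loop.

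Promoter sequence is shown for 4 members that were higher in both RykSL/SL lungs, and for Sgk1, a kinase gene of the same response. These genes were high together and differ in whether a receptor element lies next to a start. Fam107a, Sgk1, Tsc22d3 and Errfi1 have several annotated starts. For Fam107a, Sgk1 and Tsc22d3 a start with a match was picked, and each of these genes also had a start with none. Other starts of Fam107a and Sgk1 held matches too. No start of Errfi1 held a match. The stretches are the 250 bases before a RefSeq transcript start (GRCm38.p6), written 5′ to 3′ on the strand of the gene, with capitals marking matches to the element or to one of its arms. They lie at chr14:8309780-8310029 on the minus strand for Fam107a, chr10:21993640-21993889 on the plus strand for Sgk1, chrX:140600523-140600772 on the minus strand for Tsc22d3, chr17:28486150-28486399 on the minus strand for Fkbp5 and chr4:150854820-150855069 on the plus strand for Errfi1.
Fam107a: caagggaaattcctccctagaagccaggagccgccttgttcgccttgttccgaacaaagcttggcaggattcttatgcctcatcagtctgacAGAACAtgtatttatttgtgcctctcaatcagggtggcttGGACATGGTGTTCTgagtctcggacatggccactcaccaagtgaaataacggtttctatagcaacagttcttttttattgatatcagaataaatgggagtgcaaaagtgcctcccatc
Sgk1: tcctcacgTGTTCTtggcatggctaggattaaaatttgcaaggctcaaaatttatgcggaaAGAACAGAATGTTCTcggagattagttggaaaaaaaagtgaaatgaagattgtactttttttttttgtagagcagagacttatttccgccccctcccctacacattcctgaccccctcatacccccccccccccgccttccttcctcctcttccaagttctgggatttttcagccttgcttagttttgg
Tsc22d3: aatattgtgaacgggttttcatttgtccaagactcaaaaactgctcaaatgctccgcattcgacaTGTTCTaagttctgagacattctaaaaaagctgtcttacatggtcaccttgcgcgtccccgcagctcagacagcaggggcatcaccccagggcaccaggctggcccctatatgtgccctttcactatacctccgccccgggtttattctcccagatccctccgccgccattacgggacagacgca
Fkbp5: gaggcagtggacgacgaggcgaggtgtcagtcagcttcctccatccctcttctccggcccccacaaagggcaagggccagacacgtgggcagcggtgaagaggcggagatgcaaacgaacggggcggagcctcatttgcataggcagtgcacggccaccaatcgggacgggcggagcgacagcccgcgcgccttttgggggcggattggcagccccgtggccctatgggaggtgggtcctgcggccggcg
Errfi1: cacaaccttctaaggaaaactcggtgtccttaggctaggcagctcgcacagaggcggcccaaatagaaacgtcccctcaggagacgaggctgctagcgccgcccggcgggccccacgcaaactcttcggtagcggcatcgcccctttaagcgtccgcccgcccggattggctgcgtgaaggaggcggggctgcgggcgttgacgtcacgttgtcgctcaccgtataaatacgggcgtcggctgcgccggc

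The search covered both strands and used the complete palindrome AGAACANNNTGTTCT, the relaxed palindrome GNACANNNTGTNC, which matches every complete one, and the single arm TGTTCT, which the complete one contains and the relaxed one can overlap. Of 12 windows for 7 members, 0 held the complete palindrome, and 3 of all 32851 mouse windows did (0.00913%). The relaxed palindrome was in 2 windows, both of Fam107a and largely the same bases, where it reads GGACATGGTGTTC and lies 118 to 106 bases before the start of the printed window's transcript. It was in 0.387% of all windows. The single arm was in 3 windows, belonging to Fam107a and Tsc22d3, against 16.1% of all windows. Among the other response genes described below, 30 had a window, and the complete palindrome was found in 1 of their 39 windows. It was that printed for Sgk1, as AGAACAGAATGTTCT, 189 to 175 bases before the start. The relaxed palindrome was in 4 of these 30 genes (Map3k6, Mt1, Sgk1 and Trim63), against 0.44% of all genes with a window. The single arm was in 4 of the 30, against 18.2%. The windows printed for Fkbp5 and Errfi1 held none of the 3 patterns. These matches describe letters within 250 bases of a start and say nothing of elements elsewhere in the genes. Windows for Nr3c1 and Zbtb16 were not used here.

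All values below are normalized read counts as deposited, whole numbers whose scaling the sources used here do not describe. They summed to 19516482 and 19987634 in the RykSL/SL lungs and to 18743098 and 18658239 in wild type, and the rounding of low values gave estimated totals of 22800000 and 17100000 counts in the RykSL/SL libraries and 19000000 and 18800000 in the wild-type libraries. Fold changes are given as the RykSL/SL minus wild-type difference in log2(value + 1). The RykSL/SL lungs were further apart from each other (SD of the log2 difference over 18436 genes, 0.60) than the wild-type lungs (0.314). RykSL/SL lung 2 lay farthest from wild type, at 0.757 and 0.744, while RykSL/SL lung 1, at 0.61 and 0.575, was no farther from wild-type lung 2 than from RykSL/SL lung 2. RykSL/SL lung 1 had 24836 counts of Xist, the RNA of the inactive X, against 9 in RykSL/SL lung 2 and 7 and 23 in wild type. Its Y-linked Ddx3y was at 56, against 3769 in RykSL/SL lung 2 and 2328 and 2197 in wild type. So in sex-linked genes it is lung 1 that stands apart, with the pattern of a female lung where the others have that of male lungs. Sex by these genes thus differed within RykSL/SL and not within wild type. The part of sex in the differences below was not tested. Lung markers were abundant in every library, with alveolar type 2 genes summing to 233928 and 187992 in RykSL/SL and 286831 and 261433 in wild type. Summed markers of cardiomyocytes (3523 and 3510 in RykSL/SL against 6972 and 6912 in wild type), of B cells (204 and 159 in RykSL/SL against 491 and 466 in wild type) and of fibroblasts (21543 and 18803 in RykSL/SL against 30624 and 29903 in wild type) were lower in RykSL/SL, with 2 of 6, 1 of 4 and 0 of 4 tested genes called lower. Of all genes tested, 0.917% were called lower. Summed alveolar type 1 markers were lower too (27480 and 31712 in RykSL/SL against 39050 and 39732 in wild type, 0 of 4 called). So were summed macrophage markers (2329 and 2464 in RykSL/SL against 2821 and 2539 in wild type, 1 of 5 called). The called gene was Siglecf, at 3 and 2 in RykSL/SL against 36 and 30 in wild type. These lists were not uniform. The type 1 gene Hopx (7406 and 8348 in RykSL/SL against 6793 and 6824 in wild type) was higher in both RykSL/SL lungs. The macrophage gene Chil3 (460 and 801 in RykSL/SL against 197 and 313 in wild type) was higher in both as well. No marker of these types was at 0 in all 4 lungs. Their part in the differences below was not tested.

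The receptor genes themselves were slightly lower in RykSL/SL. Nr3c1, the glucocorticoid receptor gene (ENSMUSG00000024431, chromosome 18, 39410545 to 39491301, GRCm38), had 3571 and 3117 counts in the RykSL/SL lungs, against 3964 and 4039 in the wild-type lungs. Both RykSL/SL lungs lay below both wild-type lungs, by a log2 difference of -0.26 with a standard error of 0.14. Nr3c2 encodes the mineralocorticoid receptor, which also binds corticosterone with high affinity; its counts were 56 and 38 in RykSL/SL and 63 and 66 in wild type. That difference of -0.47 had a standard error of 0.29, and at these low values the RykSL/SL lungs differed from each other by 0.55. Exons of the opposite-strand gene Gm10649 overlap those of Nr3c2 by 247 bases. Per kilobase of exon, Nr3c1 stood 53.7 and 69.1 times above Nr3c2 in the RykSL/SL lungs and 53.0 and 51.6 times above it in wild type, and these ranges did not overlap but nearly touched.

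Enzyme genes that set the local supply of hormone lay on opposite sides of wild type. Hsd11b1 (ENSMUSG00000016194, chromosome 1, 193221634 to 193264075) had 2782 and 3252 counts in RykSL/SL, against 1879 and 1780 in wild type, a log2 difference of 0.72 with a standard error of 0.15. Both RykSL/SL lungs were above both wild-type lungs, on average 1.65-fold. Its counterpart Hsd11b2, which inactivates corticosterone, was at 9 and 18 in RykSL/SL and 43 and 45 in wild type (-1.71, limma adjusted p = 0.101), and did not pass the test. Per kilobase, Hsd11b1 exceeded Hsd11b2 133.8 and 78.2 times in RykSL/SL and 18.9 and 17.1 times in wild type, on the basis of few Hsd11b2 reads. H6pd, whose enzyme supplies the reducing power for Hsd11b1, had 6257 and 5460 counts in RykSL/SL against 3126 and 3478 in wild type (0.83, adjusted p = 0.0587) and did not pass either.

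The co-chaperones of the receptor complex differed in opposite directions. Fkbp5 (ENSMUSG00000024222, chromosome 17, 28399095 to 28517524) had 3969 and 4268 counts in RykSL/SL and 474 and 626 in wild type. Both RykSL/SL lungs lay far above both wild-type lungs, and the wild-type pair was the more spread on the log2 scale, for a log2 difference of 2.92 (standard error 0.18). Fkbp4 encodes FKBP52, which takes the place of FKBP51 when hormone binds and helps carry the receptor toward the nucleus. It had 1715 and 1404 counts in RykSL/SL, against 2222 and 2267 in wild type, a log2 difference of -0.53 with a standard error of 0.15. Per kilobase, the ratio of Fkbp5 to Fkbp4 was 0.683 and 0.897 in RykSL/SL and 0.0630 and 0.0815 in wild type. The ratio was higher in both RykSL/SL lungs; whether Fkbp5 stood above or below Fkbp4 there depended on the scale, since in counts not divided by length it was above Fkbp4 in both RykSL/SL lungs and below it in both wild-type lungs.

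**Figure D1:**
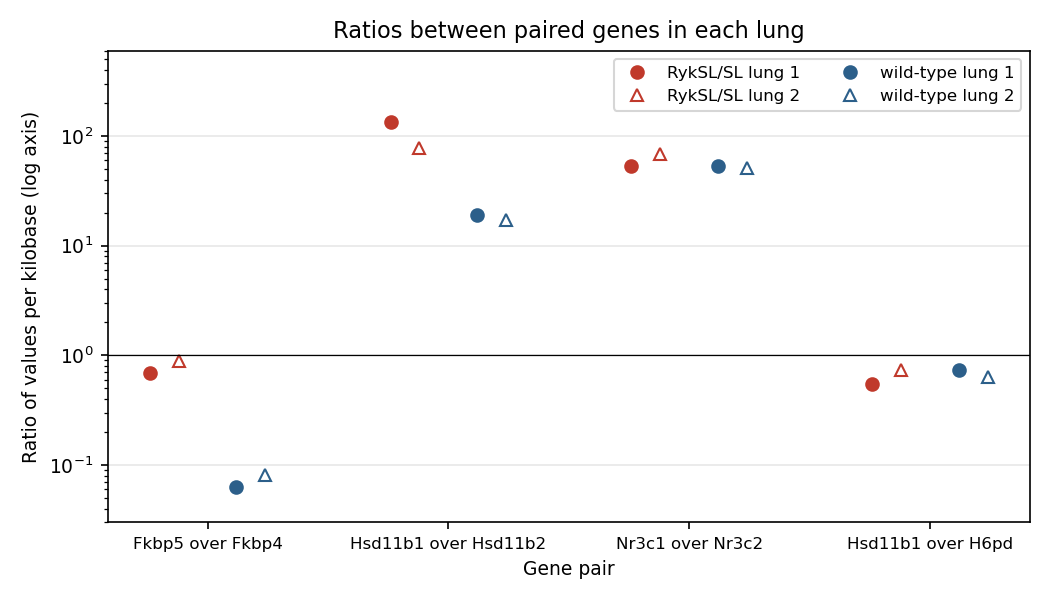
Ratio of values per kilobase of exon for 4 gene pairs (log axis) in each lung, RykSL/SL in red and wild type in blue. Fkbp5 over Fkbp4 was 0.683 and 0.897 in RykSL/SL and 0.0630 and 0.0815 in wild type, and Hsd11b1 over Hsd11b2 was also higher in both RykSL/SL lungs, while Hsd11b1 over H6pd overlapped between the groups.

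The response genes were all higher in RykSL/SL. Fam107a, which encodes a stress-induced actin-binding protein (ENSMUSG00000021750, chromosome 14, 8296274 to 8318023), had 758 and 599 counts in RykSL/SL and 26 and 22 in wild type. This was a log2 difference of 4.76 (standard error 0.22) and a 28.3-fold difference of the means. Zbtb16, for the zinc finger transcription factor PLZF (ENSMUSG00000066687, chromosome 9, 48654311 to 48835945), had 3519 and 4578 counts in RykSL/SL and 129 and 202 in wild type. Its log2 difference was 4.63 (standard error 0.25), and its spread within each group, -0.38 for RykSL/SL lung 1 minus lung 2 and -0.64 for wild-type lung 1 minus lung 2, was small beside it. Per kilobase, both genes ranked low in wild type: Fam107a stood at percentile 68.3 of the tested genes in RykSL/SL and 6.70 in wild type, and Zbtb16 at 91.4 in RykSL/SL and 27.2 in wild type.

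Tsc22d3 and Errfi1 were already abundant in wild-type lungs. Tsc22d3 encodes GILZ, a leucine zipper protein that mediates anti-inflammatory effects of glucocorticoids (ENSMUSG00000031431, X chromosome, 140539528 to 140600659). It had 10331 and 9994 counts in RykSL/SL, against 2369 and 2394 in wild type, a log2 difference of 2.09 with a standard error of 0.14. Of the 9 genes it had the smallest spread within groups, with 0.05 for RykSL/SL lung 1 minus lung 2 and -0.02 for wild-type lung 1 minus lung 2 on the log2 scale. It is X-linked, and RykSL/SL lung 1, with high Xist, and RykSL/SL lung 2, without it, had nearly the same value. Errfi1, for MIG6, an inhibitor of the EGF receptor (ENSMUSG00000028967, chromosome 4, 150853919 to 150868892), had 14463 and 19162 counts in RykSL/SL and 4018 and 3854 in wild type. The log2 difference was 2.08 (standard error 0.19), and it was larger in RykSL/SL lung 2 (2.28) than in RykSL/SL lung 1 (1.88).

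**Figure D2:**
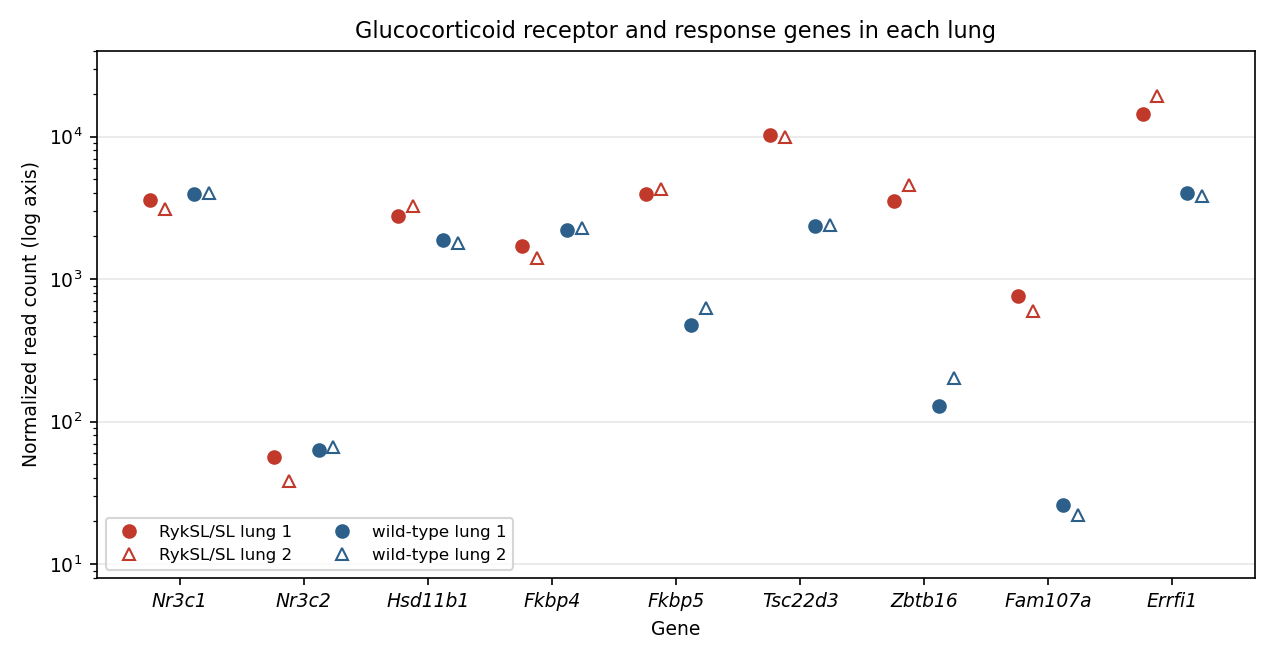
Normalized read count (log axis) of the 9 genes in each of the 4 lungs, RykSL/SL in red and wild type in blue. Hsd11b1, Fkbp5, Tsc22d3, Zbtb16, Fam107a and Errfi1 were higher in both RykSL/SL lungs, and Nr3c1, Nr3c2 and Fkbp4 were lower in both.

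In all 9 genes both RykSL/SL lungs lay beyond both wild-type lungs, 6 above and 3 below. Over all 18436 genes tested, the groups failed to overlap in 52.6%, with RykSL/SL above in 25.7% and below in 26.9%, so not overlapping was common. In a limma fit of all genes, 5 of the 9 (Fam107a, Zbtb16, Fkbp5, Tsc22d3 and Errfi1) met an adjusted p under 0.05, all higher in RykSL/SL, where 2.39% of all genes met it in either direction, 1.47% as higher and 0.917% as lower. The number of genes called depended on single lungs: limma called 0 genes, and so 0 of the 9, without RykSL/SL lung 2, wild-type lung 1 or wild-type lung 2 (5249, 917 and 1133 genes at an unadjusted p under 0.05), and 2385 genes, 7 of the 9 among them, without RykSL/SL lung 1. Relative to the wild-type mean, RykSL/SL lung 1 and lung 2 stood at 2.86 and 2.97 (Fkbp5), 2.12 and 2.07 (Tsc22d3), 4.44 and 4.82 (Zbtb16), 4.93 and 4.59 (Fam107a) and 0.60 and 0.83 (Hsd11b1) on the log2 scale, so the direction was the same without lung 1. As the genes were picked with these differences known, the counts are a description and no test. In whole lobes, more cells of a type that makes a transcript cannot be told apart from more transcript per cell.

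The order of the 9 genes by level per kilobase of exon differed between the genotypes. In the RykSL/SL lungs Errfi1 was highest, at 4038 and 5349.5 normalized counts per kilobase, and Tsc22d3 next, at 2379.9 and 2302. Zbtb16 (666 and 867) and Hsd11b1 (654 and 765) followed with overlapping values, then Fkbp4 (614 and 502). Nr3c1 (465 and 406) and Fkbp5 (419 and 451) also overlapped, and Fam107a (196 and 155) and Nr3c2 (8.65 and 5.87) came last. In the wild-type lungs Errfi1 (1122 and 1076) was again highest, then Fkbp4 (795 and 811), Tsc22d3 (546 and 551), Nr3c1 (516 and 526) and Hsd11b1 (442 and 419). Below them stood Fkbp5 (50.1 and 66.1), Zbtb16 (24.4 and 38.2), Nr3c2 (9.73 and 10.2) and Fam107a (6.72 and 5.68). In wild type no neighbours in this order overlapped. Exon lengths join all annotated isoforms, so a gene with many, such as Fkbp5 with 15 transcripts, reads low on this scale.

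Among the genes that were not members, those with the most similar profile were sought over 12788 protein-coding genes with a mean of at least 50, by Euclidean distance between log2 profiles over the 4 lungs, each centred on its own mean. Nearest to Fkbp5 were Kcnip3 (distance 0.195), with 294 and 292 counts in RykSL/SL and 32 and 50 in wild type, then Klf15 (0.264) and Hif3a (0.265). Nearest to Tsc22d3 were Pim3 (0.182), with 3208 and 3643 counts in RykSL/SL and 851 and 831 in wild type, then Il6ra (0.228) and Klf9 (0.235). Zbtb16 had no such close match: its nearest genes, Mchr1, Galnt15 and Kcnt1, were at distances of 1.0 to 1.15. Within the set, Zbtb16 lay 0.811 from Fam107a and Tsc22d3 0.325 from Errfi1. Each distance rests on 4 values, and genes chosen for it share the high RykSL/SL and low wild-type levels.

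A further 38 genes known as glucocorticoid targets in various tissues were listed, with earlier results of these data known. Over all genes, 2.39% were called, 1.47% as higher and 0.917% as lower. Of the 37 listed genes above the filter, 20 rose in RykSL/SL and 0 fell, 54.1% of those tested. Their median log2 difference was 1.5, against -0.02 over all genes, and it was 1.23 in RykSL/SL lung 1 and 1.53 in RykSL/SL lung 2. Transcription factor gene Klf15, a regulator of amino acid breakdown, had 2657 and 2846 counts in RykSL/SL and 313 and 337 in wild type (3.08, standard error 0.14, limma adjusted p = 0.00415). Klf9, another Kruppel-like factor gene and an early target of the receptor, rose by 2.02 with 3359 and 2609 counts in RykSL/SL against 729 and 728 in wild type (adjusted p = 0.0103). The clock gene Per1, which carries receptor elements, had 4781 and 7111 counts in RykSL/SL and 1462 and 1570 in wild type (1.94, adjusted p = 0.0170).

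Another 6 of the genes with the smallest p rose as follows. Ddit4, an inhibitor of the TOR kinase, had 2296 and 2255 counts in RykSL/SL and 320 and 399 in wild type (2.67). Cdkn1a, the cell cycle inhibitor p21, had 3422 and 2699 in RykSL/SL against 446 and 475 in wild type (2.72), and Sesn1, a sestrin, had 3087 and 3393 in RykSL/SL against 966 and 903 in wild type (1.79). Pdk4, the kinase that shuts down pyruvate dehydrogenase, had 1578 and 1423 in RykSL/SL against 309 and 252 in wild type (2.42). Glul, which makes glutamine, had 18764 and 15398 in RykSL/SL against 3315 and 3351 in wild type (2.35), and Hif3a, a hypoxia-inducible factor subunit, had 4454 and 5582 in RykSL/SL against 682 and 851 in wild type (2.71). For these 6 genes the adjusted p in limma lay between 0.00439 and 0.00878. Some reads of Glul and Cdkn1a may be shared, since 12.6% and 8.49% of their 50-base stretches recur in other genes' transcripts, and opposite-strand exons overlap theirs by 116 and 273 bases.

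Sgk1, whose kinase keeps epithelial sodium channels at the membrane, rose least of the 20, with 6789 and 5636 counts in RykSL/SL and 3264 and 2558 in wild type (1.10, adjusted p = 0.0452). The channel subunit gene Scnn1a had 7878 and 6017 in RykSL/SL against 3264 and 3972 in wild type (0.93, adjusted p = 0.0760) and did not pass. Nor did Anxa1, an anti-inflammatory annexin gene, with 10659 and 7735 in RykSL/SL against 7326 and 5943 in wild type (0.46, adjusted p = 0.296). Rgs2, a brake on G protein signalling, had 2797 and 5885 in RykSL/SL against 2196 and 1896 in wild type (0.99, adjusted p = 0.193), and Tgm2, a transglutaminase gene, 3266 and 1899 in RykSL/SL against 1738 and 1662 in wild type (0.55, adjusted p = 0.301). The list was not uniform, and Angptl4, picked for its opposite direction once values were known, had 797 and 1094 counts in RykSL/SL and 1376 and 1441 in wild type (-0.59, adjusted p = 0.165). The list was written with earlier results of these data known. Limma called 0 of the 37 genes without RykSL/SL lung 2, without wild-type lung 1 or without wild-type lung 2, when 30, 24 and 26 had an unadjusted p under 0.05, and 21 without RykSL/SL lung 1; the 20 genes were higher in RykSL/SL each time.

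**Figure D3:**
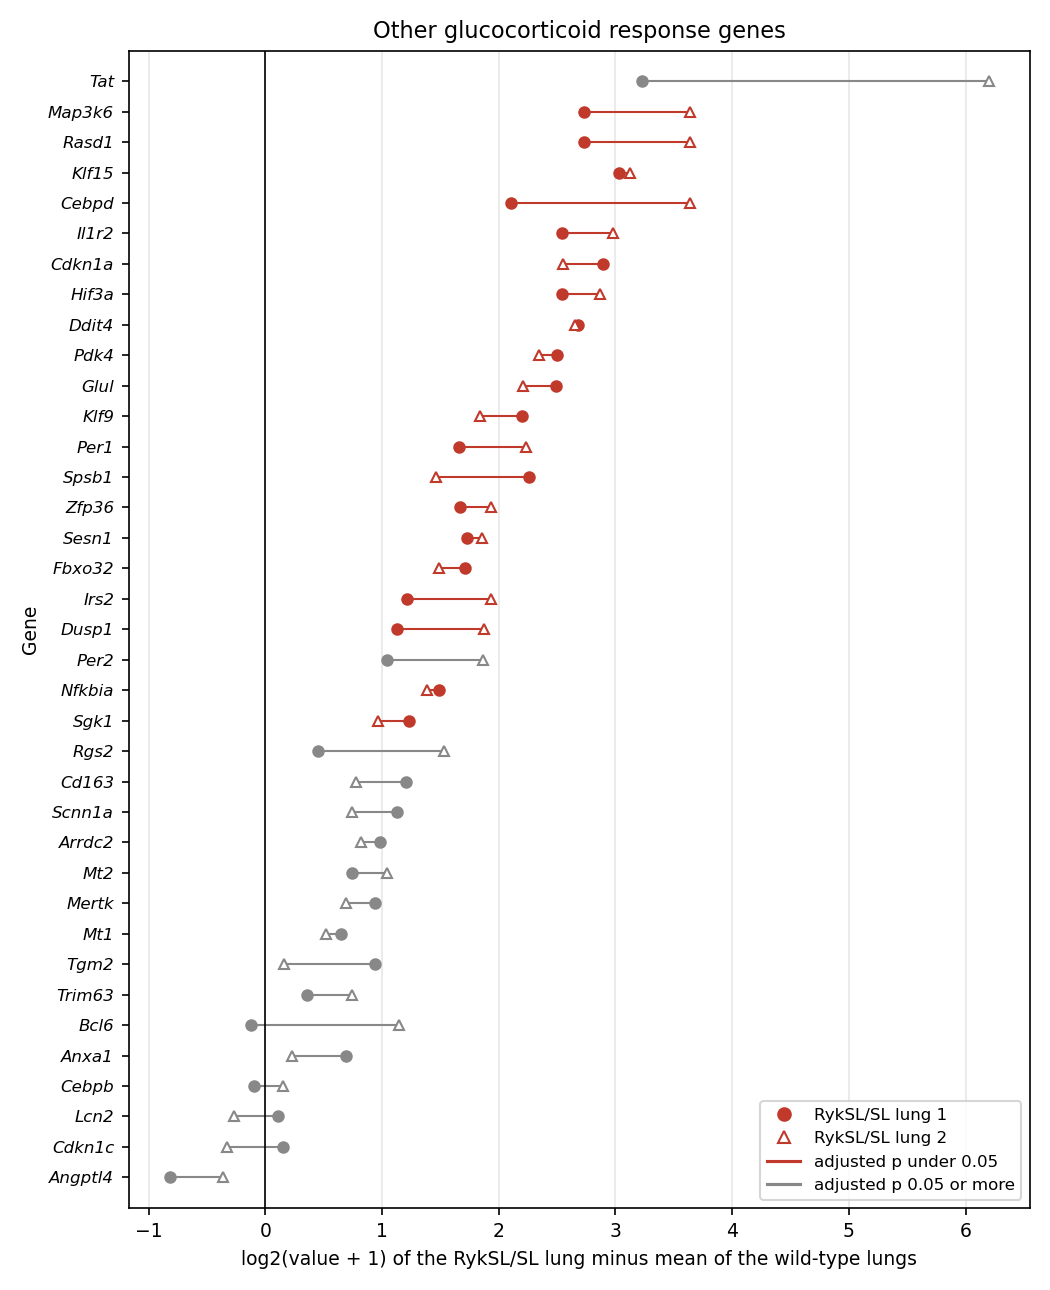
Difference of each RykSL/SL lung from the mean of the wild-type lungs in log2(value + 1) for the 37 other glucocorticoid response genes tested, circles for RykSL/SL lung 1 and triangles for RykSL/SL lung 2. Red marks the 20 genes with an adjusted p under 0.05, all to the right of 0, and the median was 1.23 in lung 1 and 1.53 in lung 2.

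Genes for the machinery around the receptor were called at about the share of all genes. Of 30 chaperone and coregulator genes, 1 rose and 0 fell (3.33%, against 2.39% of all genes), 6 had an unadjusted p under 0.05 (against 3703 of all 18436, or 20.1%), and the median log2 difference was 0.01. The gene was Nrip1, a corepressor of nuclear receptors, with 1668 and 1484 counts in RykSL/SL and 799 and 805 in wild type (0.97, adjusted p = 0.0315). Hsp90ab1, for the main HSP90 isoform, had 15604 and 12808 in RykSL/SL against 14573 and 15338 in wild type (-0.08, standard error 0.18, adjusted p = 0.842), and Hsp90aa1 had 7636 and 5480 in RykSL/SL against 7626 and 6849 in wild type (-0.16, adjusted p = 0.704). Hspa8, the constitutive HSP70 gene, was at 21174 and 23721 in RykSL/SL against 22693 and 21374 in wild type, and its partner Dnaja1 at 4361 and 3578 in RykSL/SL against 4534 and 4348 in wild type. Reads of Hsp90aa1 and Hspa8 are partly ambiguous, since 47.5% and 39.4% of their 50-base sequences occur in other transcripts. The coactivator gene Ncoa2 had 1951 and 1812 in RykSL/SL against 1313 and 1409 in wild type (0.47, adjusted p = 0.147). The median of the 30 genes was 0.09 without RykSL/SL lung 1 and 0.08 without RykSL/SL lung 2. That median joins 15 genes with a positive and 15 with a negative log2 difference. Without overlap, 14 of the 30 lay above wild type (46.7%) and 5 below, where 25.7% and 26.9% of all genes did. Most of those above were coregulators and most of those below chaperones, a split made after the values were seen.

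Genes for making, carrying and clearing steroids gave 0 calls in limma among 11 tested of 18 listed, with 6 at an unadjusted p under 0.05, where 20.1% of all genes had one. The median was 0.38, and it was 0.17 without RykSL/SL lung 1 and 0.18 without RykSL/SL lung 2. Besides Hsd11b2 and H6pd, the reductase gene Por had 2579 and 4265 counts in RykSL/SL and 1685 and 1875 in wild type (0.90, adjusted p = 0.136). The ferredoxin gene Fdx1 had 1011 and 1198 in RykSL/SL against 688 and 686 in wild type (0.68, adjusted p = 0.0849), and Srd5a3 463 and 329 in RykSL/SL against 474 and 443 in wild type (-0.23, adjusted p = 0.571). Abcb1b, with the smallest p of the list, had 203 and 420 in RykSL/SL against 67 and 76 in wild type (2.02, limma adjusted p = 0.0511). Of the 11 genes, 6 had a positive and 5 a negative log2 difference. Cyp11b1 and Cyp21a1, defining genes of the adrenal cortex, were at 0 in all 4 libraries, and the 4 adrenal markers summed to 23 and 36 in RykSL/SL and 8 and 13 in wild type, mostly from Mc2r.

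Among genes repressed by the receptor in other settings, mostly inflammatory ones, many were scarce, and 8 of 14 passed the filter. Of these 8, 1 was called lower and 0 higher, where 0.917% of all genes were called lower and 1.47% higher. It was Vcam1, a leukocyte adhesion gene of endothelium. Its counts were 727 and 452 in RykSL/SL and 1837 and 1534 in wild type (-1.55, standard error 0.25, limma adjusted p = 0.0394). The median of the 8 was -1.08; it was -0.71 without RykSL/SL lung 1, and -0.63 over the 4 of them averaging 50 or more. Endothelial markers summed to 21047 and 10327 in RykSL/SL and 14819 and 16141 in wild type, and their part in the Vcam1 difference was not tested. Il1b had 15 and 33 in RykSL/SL against 72 and 73 in wild type (-1.66, adjusted p = 0.107), Nos2 147 and 67 in RykSL/SL against 170 and 218 in wild type (-0.95, adjusted p = 0.245), and Icam1 2957 and 3723 in RykSL/SL against 4350 and 3868 in wild type (-0.31, adjusted p = 0.373). Ptgs2, which makes prostaglandins, was far higher in RykSL/SL lung 2 alone, with 52 and 914 counts in RykSL/SL and 106 and 67 in wild type (adjusted p = 0.572). Relative to the wild-type mean, RykSL/SL lung 2 stood at -1.89 for Vcam1, 3.42 for Ptgs2 and 2.50 for Il6 on the log2 scale. RykSL/SL lung 1 stood at -1.21, -0.69 and -0.87. Il6 was scarce, with 2 and 30 counts in RykSL/SL and 5 and 4 in wild type.

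Relatives and partners of the 9 genes gave 0 calls in limma, where 4 of 13 other FK506-binding protein genes, 1 of 7 paralogues and 2 of 10 genes of the EGF receptor family and its ligands had an unadjusted p under 0.05 (20.1% of all genes had one, so nothing is read from these counts). The median was 0.21 for the paralogues and 0.24 for the EGF receptor family and ligands. These medians were 0.20 and 0.34 without RykSL/SL lung 1, and 0.18 and 0.31 without RykSL/SL lung 2. Of the 13 FK506-binding genes, 3 lay above and 8 below wild type without overlap, where 25.7% and 26.9% of all genes did. Nothing is read from these counts. The median of the 13 was -0.33, and it was -0.22 without RykSL/SL lung 1 and -0.10 without RykSL/SL lung 2. Fkbp1a, the most abundant, had 5209 and 3138 counts in RykSL/SL and 4646 and 4715 in wild type, Fkbp9 3969 and 2876 in RykSL/SL against 4296 and 4206 in wild type, Fkbp8 3011 and 2966 in RykSL/SL against 2713 and 2853 in wild type, and Fkbp10 1090 and 736 in RykSL/SL against 1148 and 1302 in wild type. The paralogue Tsc22d1 had 9032 and 9466 in RykSL/SL against 8050 and 7892 in wild type (0.21, adjusted p = 0.471), and Fam107b 1074 and 1066 in RykSL/SL against 890 and 973 in wild type (0.20, adjusted p = 0.457). Tsc22d2 had 964 and 1476 in RykSL/SL against 887 and 862 in wild type (0.45, adjusted p = 0.317), and Tnk2, a kinase gene related to Errfi1 in part of its sequence, 869 and 952 in RykSL/SL against 1230 and 1350 in wild type (-0.50, adjusted p = 0.139). Of the EGF receptor family, which MIG6 inhibits, Egfr had 1177 and 1464 counts in RykSL/SL and 739 and 636 in wild type (0.94, adjusted p = 0.0558), Erbb3 3431 and 2315 in RykSL/SL against 1677 and 1848 in wild type (0.68, adjusted p = 0.165), and Erbb2 1053 and 795 in RykSL/SL against 840 and 957 in wild type (0.03, adjusted p = 0.949). The ligand gene Hbegf had 316 and 266 in RykSL/SL against 373 and 360 in wild type (-0.34, adjusted p = 0.323).

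Circadian clock and immediate early genes, which respond to time of day and to handling, were also higher in part. As background, 1.47% of all genes were called higher and 0.917% lower. Of 17 clock genes 4 rose and 0 fell, with a median of 0.89; 0 passed without RykSL/SL lung 2 or either wild-type lung. They were Per1, Arntl (759 and 760 counts in RykSL/SL, 371 and 346 in wild type, 1.08, adjusted p = 0.0266), Cry1 (814 and 741 in RykSL/SL against 342 and 399 in wild type, 1.07, adjusted p = 0.0333) and Nfil3 (662 and 1523 in RykSL/SL against 193 and 176 in wild type, 2.44, adjusted p = 0.0360). Dbp, an output gene of the clock, was lower without passing (64 and 32 in RykSL/SL against 120 and 155 in wild type, -1.57, adjusted p = 0.0980), as were Nr1d1, a repressor of Arntl (234 and 142 in RykSL/SL against 325 and 345 in wild type, -0.87, adjusted p = 0.154), and Bhlhe41 (-0.85, adjusted p = 0.280); these 3 were named after their values were seen, as the clock genes below wild type in both RykSL/SL lungs. Summed clock genes were 20601 and 26522 in RykSL/SL and 11757 and 13187 in wild type. Of 15 immediate early genes 2 rose, Jun (3765 and 3649 in RykSL/SL against 2002 and 2008 in wild type, 0.89, adjusted p = 0.0333) and Klf6 (7927 and 9765 in RykSL/SL against 4532 and 4003 in wild type, 1.05, adjusted p = 0.0436), and Fos (944 and 2244 in RykSL/SL against 372 and 284 in wild type, adjusted p = 0.0577) and Klf4 (5128 and 3431 in RykSL/SL against 1981 and 2035 in wild type, 1.06, adjusted p = 0.0683) did not pass. Egr2 (5 and 26 in RykSL/SL against 40 and 46 in wild type, -1.79, limma adjusted p = 0.233) was lower without passing. So was Ier3 (551 and 957 in RykSL/SL against 1041 and 979 in wild type, -0.47, limma adjusted p = 0.373). Both were named after their values were seen, as the immediate early genes tested that lay below wild type in both RykSL/SL lungs. Summed immediate early genes were 27506 and 34930 in RykSL/SL and 17327 and 16923 in wild type. Without RykSL/SL lung 1 the median was 0.87 for the clock genes and 0.82 for the immediate early genes. Without RykSL/SL lung 2 these medians were 0.74 and 0.29, so the immediate early difference was smaller in lung 1. No gene of either list was at 0 in all lungs, Per1 and Per2 stand in both the clock and response lists, and the part of these states in the members' differences was not tested.

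**Figure D4:**
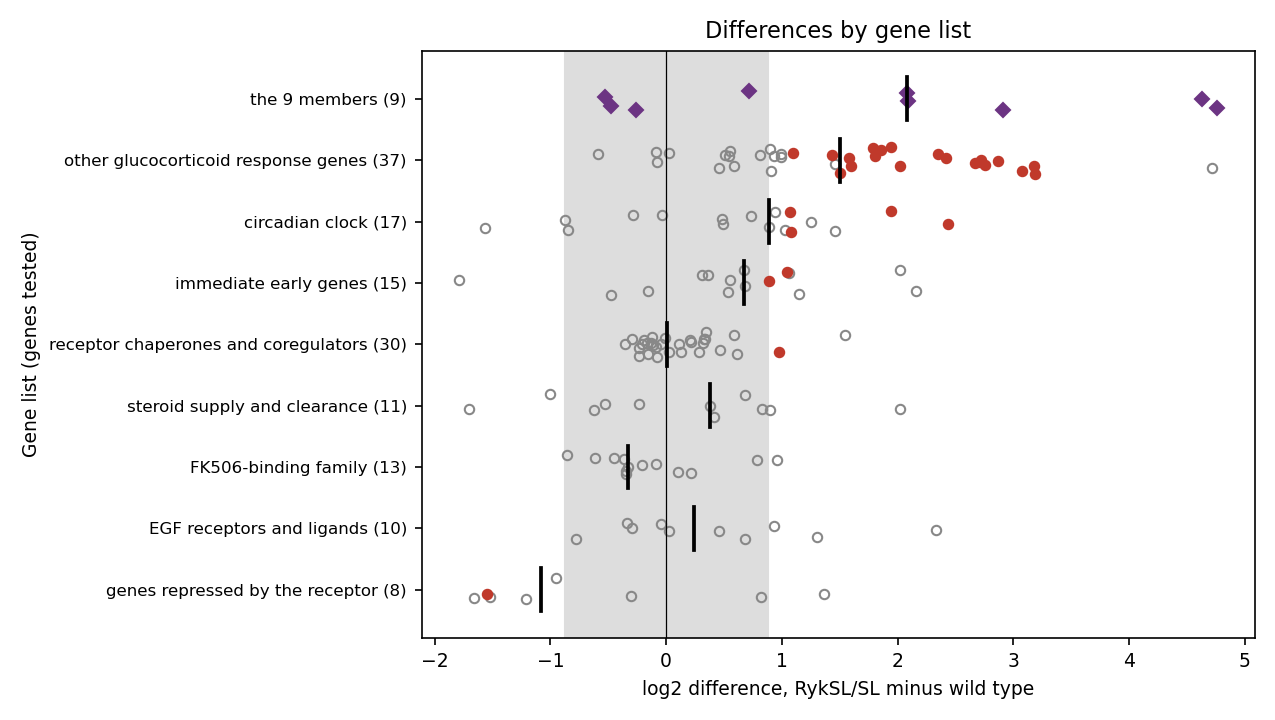
Log2 difference, RykSL/SL minus wild type, for the 9 genes (diamonds, no test) and for 8 gene lists, with filled red circles for an adjusted p under 0.05, open circles for other genes, black bars for list medians, and a grey band for the 5th to 95th percentile of all tested genes (-0.87 to 0.88). The medians were 1.5 for other response genes, 0.89 for clock genes and 0.01 for chaperones and coregulators.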

How the data were processed

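Libraries were made from lung RNA with a stranded mRNA kit, per the labels. FastQC, STAR 2.4.0a, featureCounts 1.5.1 and DESeq2 1.14.1 with mm10/GRCm38 are named in the submitters' processing notes. The sources used here do not give strand setting, multi-mapping or scaling. The authors deposited normalized counts rounded to whole numbers, treated here as a score and not as raw counts, so no count model was run. The 18436 of 48709 genes averaging 10 or more were fitted in limma 3.58.1 (R 4.3.3) on log2(value + 1) with a mean-variance trend and 4.07 prior degrees of freedom, two-sided, with Benjamini-Hochberg adjustment over all of them and a cutoff of 0.05. The function was run on simulated data with the same dispersion in both groups. The RykSL/SL lungs were further apart than the wild-type lungs (0.60 against 0.314), and that simulation does not cover such a difference. The quoted standard errors come from this limma fit, which draws each gene's variance toward that of genes of similar level. They are therefore not the spread of that gene alone. For Tsc22d3 the residual SD was 0.025 and the standard error 0.14, and for Zbtb16 they were 0.373 and 0.25. An exact permutation test of 2 against 2 lungs cannot go below p = 0.333. Estimated depths cover counting error only.

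Members, lists and alternatives were chosen with earlier results of these data known. Counts and medians without a lung for the family, partner, clock and immediate early lists were added after the data were seen. Named genes were the 9 members, up to 8 called and the 4 most abundant other genes of each list, a fixed handful of receptor pathway genes, up to 4 clock and 4 immediate early genes by p, and nearest profiles. Exon lengths, overlaps and shared 50-base sequences came from GENCODE M21 (48349 identifiers matched), and promoters from RefSeq. Python 3.11.15, pandas 2.3.3, numpy 2.4.6 and matplotlib 3.10.9 were used for the other steps.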

Additional observations from a re-analysis of the deposited data

How the results depend on the processing

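The differences of the 9 members kept their direction under every alternative: other pseudocounts (0.5, 5), filters (none, mean of at least 50), quantile or total scaling, no trend, the replicate block and leaving out each lung. The counts of calls did not. The number of genes called, 440, became 0 with no filter (4876 at an unadjusted p under 0.05), 72 without the mean-variance trend, 766 with the replicate block, and 0 to 2385 when single lungs were left out (2385 without RykSL/SL lung 1 and 0 without any of the other 3), where the lone lung of a genotype is assumed to vary like the other group. For the other glucocorticoid response genes, 20 calls became 0 with no filter (29 at an unadjusted p under 0.05), 7 without the trend and 0 to 21 without single lungs; after quantile or total scaling 18 of the same 20 were called, without Dusp1 and Sgk1. Dividing by library totals moved the median of all genes to -0.09. Without RykSL/SL lung 1, Sgk1 and Il1r2 no longer passed. Chaperones and coregulators had 0 calls with no filter (8 unadjusted) and without the trend (4 unadjusted), and 0 to 4 without single lungs. Genes repressed by the receptor had 0 with no filter (3 unadjusted) and without the trend (2 unadjusted), and 2 with the block. Without RykSL/SL lung 1 their differences went both ways, at -1.89 for Vcam1, 3.42 for Ptgs2 and 2.50 for Il6. Steroid genes had 1 call (Abcb1b) after quantile normalization and 1 with the block, and 0 to 4 without single lungs. The causes were not tested. Same-numbered lungs share only a number: the correlation of their deviations over genes was -0.06, so the block is not a pairing that the design gives.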
